A study of Mus musculus with 12 samples.

Results

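The cytosolic ribosomal proteins are the genes whose symbol begins with Rpl, Rps or Rplp followed by a digit and that are annotated as protein coding, without the Rps6k kinases. They held 83 of the 15838 genes measured in mouse corneal endothelium, the single cell layer that pumps fluid out of the cornea. The libraries were made from Descemet membrane with its endothelium, taken at 10 weeks of age from C57BL/6 mice, and fell into 4 groups of 3 libraries: KO males, KO females, WT males and WT females. KO mice were Slc4a11-/-, homozygous for an Slc4a11 allele from which exons 9 to 13 had been removed by gene targeting. Slc4a11 encodes a membrane transporter of the endothelium. WT mice were their Slc4a11+/+ littermates from an intercross of heterozygous mice. The deletion is constitutive, so every cell of a KO mouse carried it. The sample records describe pooled membranes, whereas the study's methods describe membranes handled as pairs, so whether a library is 1 mouse is not settled. The one measured value used per gene is the authors' mean log2 CPM (counts scaled to the library total) over all 12 libraries, in which KO and WT, male and female are averaged together. It has no SD and no number of replicates, the depth of a library is unknown, and genotypes and sexes were not compared for these genes.

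The ribosome is built from a small (40S) subunit, which reads the mRNA, and a large (60S) subunit, which joins amino acids, each an RNA core carrying many proteins. Most of these proteins are present in 1 copy per ribosome and each is encoded, with few exceptions, by 1 expressed gene. In mammals these genes also have many processed pseudogenes, copies of their mRNA inserted elsewhere in the genome. Their mRNAs usually begin with a C followed by a run of pyrimidines, the 5′ terminal oligopyrimidine motif, through which growth signals control their translation.

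By the lists used here the 83 genes held 42 of 43 core proteins of the 60S subunit, all 30 core proteins of the 40S subunit, all 3 proteins of the P stalk (the arm of the 60S subunit that recruits translation factors), 4 paralogs and 4 further matches to the name rule. The core protein without a value was Rpl24. The further matches were Rps27rt and Rpl9-ps6, single-exon copies of Rps27 and Rpl9, together with Rps23rg1 and Rps19bp1, which are not core proteins of a subunit. The 75 core genes were dispersed over the X chromosome and every autosome except chromosome 19. Chromosome 7 held 14 of them, and it held 16.9% of the 83 genes but 7.75% of all protein coding genes measured.

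Transcript starts of 8 core genes are shown because the run of pyrimidines at the start is the feature these mRNAs are known for. They were chosen from the 13 core genes, of 55 with a RefSeq start, whose run begins at an annotated start. Each line gives 20 bases before and 20 bases from an annotated start of RefSeq on GRCm38.p6, 5′ to 3′ on the strand of the gene, and capitals mark the C and the pyrimidines that follow it.
Rpl15, chr14:18270967-18271006, minus strand: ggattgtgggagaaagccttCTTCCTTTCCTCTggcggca
Rpl35, chr2:39005112-39005151, minus strand: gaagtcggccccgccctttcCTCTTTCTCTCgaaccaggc
Rps10, chr17:27635225-27635264, minus strand: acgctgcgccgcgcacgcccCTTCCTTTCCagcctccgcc
Rps18, chr17:33955646-33955685, minus strand: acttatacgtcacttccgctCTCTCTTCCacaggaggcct
Rps6, chr4:86857348-86857387, minus strand: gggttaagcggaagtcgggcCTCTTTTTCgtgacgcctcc
Rpl28, chr7:4792945-4792984, plus strand: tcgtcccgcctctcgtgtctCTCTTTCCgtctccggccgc
Rpl38, chr11:114668560-114668599, plus strand: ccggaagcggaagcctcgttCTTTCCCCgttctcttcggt
Rplp2, chr7:141447631-141447670, plus strand: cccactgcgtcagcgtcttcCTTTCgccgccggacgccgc

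Counted from the first annotated base, the run in these 8 genes was 5 to 13 bases long, shortest in Rplp2 (5 bases) and longest in Rpl15 (13 bases). The base directly before the start was also a pyrimidine in each line. On the genome the stretch of pyrimidines therefore begins earlier, and its full length was not counted. Rps6 encodes the 40S protein phosphorylated by the S6 kinases. Rps10 and Rpl35, which had 2 of the lowest core levels, carried runs of 10 and 11 bases counted from the start.

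The members differed in how far their sequence sets them apart from other genes. Rps27, a 40S protein of chromosome 3, is set beside its copy Rps27rt and its paralog Rps27l, and Rpl39, a very small protein lining the exit tunnel of the 60S subunit, beside its paralog Rpl39l. The lines give coding bases 1 to 60 of the main GENCODE transcript (release M21, GRCm38), and capitals mark bases that differ from Rps27 or Rpl39.
Rps27, gene at chr3:90212522-90213651, minus strand: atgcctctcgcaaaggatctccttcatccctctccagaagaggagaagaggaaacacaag
Rps27rt, gene at chr9:114982366-114982739, minus strand: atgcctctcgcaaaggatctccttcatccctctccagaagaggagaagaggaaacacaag
Rps27l, gene at chr9:66946086-66949516, plus strand: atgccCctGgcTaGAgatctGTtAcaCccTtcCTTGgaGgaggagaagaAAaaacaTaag
Rpl39, gene at chrX:37082520-37085402, minus strand: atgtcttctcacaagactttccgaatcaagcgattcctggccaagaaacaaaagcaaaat
Rpl39l, gene at chr16:10170226-10174911, plus strand: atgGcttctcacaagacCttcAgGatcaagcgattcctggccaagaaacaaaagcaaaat

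Rps27rt had the coding sequence of Rps27 without a single difference over 252 bases, so a read from the coding part of one is also a read of the other. Rps27l differed from Rps27 at 60 of 252 coding bases, 18 of them among the 60 shown. Rpl39l differed from Rpl39 at 23 of 153 coding bases, 4 of them among those shown.

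As a set these genes were measured at high levels. The 83 genes had a median of 6.68 log2 CPM, against 3.76 over all genes, and 74 of them lay above that median of all genes. Each of them had a mean over 1 CPM, as did most genes, of which 1431 of 15838 were under 1 CPM. Longer transcripts collect more reads, so levels of different genes are compared here as log2 CPM per kb of the main annotated transcript. On this scale the 75 core genes had a median of 7.11 and all genes a median of 2.45, and 70 of the 75 were at or above the 90th percentile of all genes. Core transcripts were short, with a median of 775 bases against 2956 in the other protein coding genes, and the median percentile of the 83 genes was 89.4 by level and 98.1 per kb. Summed, the 83 genes took 10522 CPM of 977011 CPM over all genes, or 1.08%. Because the sum is over back-transformed means of logs, it is near but not equal to a share of reads. Core 60S genes gave 5301 CPM of it, core 40S genes 3885 CPM and the P stalk 1194 CPM, and the other 8 matches gave 143 CPM.

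**Figure D1:**
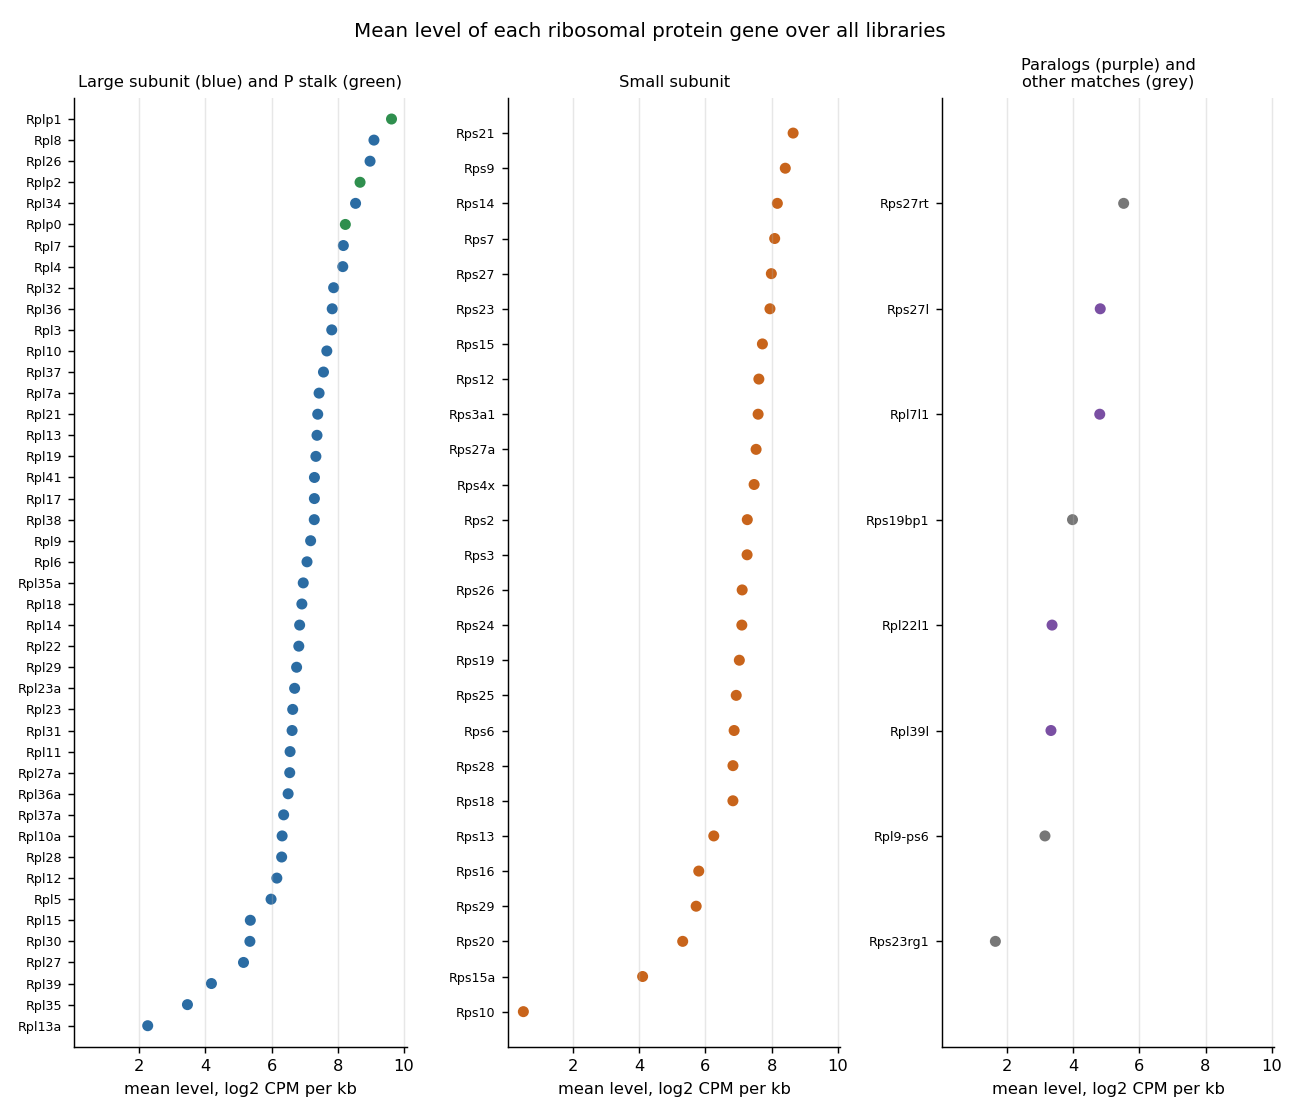
Each point is the authors' mean level of one gene over all 12 libraries, in log2 CPM per kb of transcript, ordered within the large subunit with the P stalk, the small subunit, and the paralogs with other matches. Most core genes lie between 5 and 9 and descend gradually, with 5 core genes not shown. Rps10 at 0.50 and Rpl13a at 2.26 stand below the rest, and the 8 other matches lie between 1.65 and 5.53.

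The 3 P stalk genes were among the 9 highest core genes per kb. Rplp1, which with Rplp2 forms the flexible dimers of the stalk, was the highest of all at 9.62 log2 CPM per kb. Rplp2 was 5th at 8.67 and Rplp0, the protein that anchors the stalk to the subunit, was 9th at 8.23. As levels not divided by length, the 3 were nearly equal at 8.62 for Rplp1, 8.62 for Rplp2 and 8.67 log2 CPM for Rplp0.

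Around the P stalk, the highest core genes per kb came from both subunits. Rpl8, a protein close to the centre where peptide bonds form, followed Rplp1 at 9.09 log2 CPM per kb. The 60S protein Rpl26 had 8.97. Rps21 had 8.65, Rpl34 had 8.54 and Rps9, which binds early in assembly of the small subunit, had 8.41. As levels not divided by length, the 5 highest were Rpl8 at 8.86, Rpl4 at 8.77, Rplp0, Rplp1 and Rplp2, all of them proteins of the large subunit.

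The core genes formed one band with a tail on the low side. The middle 50% of them lay between 6.52 and 7.69 log2 CPM per kb, a 2.25-fold range and a width of 1.17 on the log2 scale. With only windows found in no other gene counted as length, the width was 2.16. On the scale of the whole transcript, 69 of 75 lay within 2 of their median on the log2 scale. Only Rplp1 was more than 2 above that median, and 5 genes were more than 2 below it: Rps10, Rpl13a, Rpl35, Rps15a and Rpl39. From the lowest to the highest core gene the difference was 9.12 on the log2 scale.

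Rps10 (chr17:27630418-27636669 on GRCm38), a 40S protein near the entry of the mRNA, was the lowest core gene at 0.50 log2 CPM per kb, which was 6.61 below the core median and at the 24.4th percentile of all genes. Its mean of 1.26 CPM was under that of Rps10-ps2, a processed pseudogene of it with 4.57 CPM. Rpl13a (chr7:45125558-45128761), known beyond the ribosome for a role in silencing inflammatory mRNAs, came next at 2.26 log2 CPM per kb and 5.01 CPM. These 2 genes were also the members with over 50% of their transcript covered by exons of another gene on the same strand: 53.6% of Rps10 by the readthrough gene RPS10-NUDT3 and 59.3% of Rpl13a by Gm45713. Among the other genes measured, 0.699% had over 50% of their transcript covered in this way. Another member, Rpl19, had 10.7% covered and stood at 7.34 log2 CPM per kb, above the core median. The part of these overlaps in the low values was not tested.

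Rpl35 at 3.46 and Rpl39 at 4.18 log2 CPM per kb, both proteins at the exit tunnel, had no such overlap. Rps15a stood at 4.10 per kb with an annotated transcript of 5130 bases, and its level of 6.46 log2 CPM was close to the core median level of 6.76. Of the remaining 3 among the 8 lowest, Rpl27 had 5.15, Rps20 had 5.31 and Rpl30 had 5.35 log2 CPM per kb. Rps20, too, was low only per kb, with a level of 7.20 log2 CPM. By level alone the 5 lowest core genes were Rps10 at 0.33, Rpl13a at 2.33, Rpl35 at 3.38, Rpl39 at 3.48 and Rps29 at 4.36 log2 CPM. Rps10, Rpl13a and Rpl35 were also the 3 lowest per kb of coding sequence, at 1.34, 3.04 and 4.82.

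The subunits overlapped almost fully. Core 40S genes had a median of 7.22 log2 CPM per kb, with the middle 50% between 6.83 and 7.69. Core 60S genes had a median of 6.89, with the middle 50% between 6.40 and 7.42. The medians differed by 0.33 on the log2 scale, less than the interquartile width of 1.17 over the core genes, and by 0.02 for levels not divided by length. The difference was 0.62 over the 45 core genes for which no pseudogene bearing their name was measured. Copies under other names were not considered in that count. It was 0.51 with only windows found in no other gene counted as length.

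Within the 60S subunit, the genes around the exit tunnel, through which the new protein leaves, spread over most of the range. Rpl4, whose extension reaches into the tunnel, had 8.15 log2 CPM per kb. Rpl19 had 7.34, Rpl17 had 7.29 and Rpl23a, a docking site at the tunnel mouth, had 6.70. Rpl31 had 6.62, and Rpl39 and Rpl35 were lowest as given above. The 2 proteins of the 5S RNP, which also bind Mdm2 when ribosome assembly fails, stood next to each other with 6.56 for Rpl11 and 5.98 for Rpl5.

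Ribosomal proteins whose names fall outside the rule were also measured, and those given here had similar levels. Fau, which encodes the 40S protein eS30 fused to a ubiquitin-like protein, had 7.95 log2 CPM per kb. Rpsa had 7.73 and Rack1, a signalling scaffold on the 40S head, had 7.35. Rps27a, which encodes a 40S protein fused to ubiquitin, is one of the 83 genes and had 7.53 log2 CPM per kb.

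Copies and paralogs of core genes were measured below the genes they resemble in each of the 8 pairs formed. Rpl22l1, a paralog that can replace Rpl22 in the ribosome, had 5.68 CPM against 232 CPM for Rpl22, or 10.99-fold less per kb. Rps27l had 14.1 CPM against 87.7 CPM for Rps27, or 9.002-fold less per kb. Rpl7l1, a relative of Rpl7 that takes part in assembly of the large subunit, had 72.8 CPM against 334 CPM, or 10.3-fold less per kb. The closest pair was Rpl39 with 11.1 CPM and Rpl39l with 8.10 CPM, 1.81-fold apart per kb. No window of 50 bases, the read length, was shared within these 4 pairs, so a single read without mismatch could be placed to one gene of the pair. Rpl22l1 did share 57.3% of its windows with genes other than Rpl22. Likewise, Rps27 shared 98.6% with genes other than Rps27l, and Rpl7 shared 53.3% with genes other than Rpl7l1. The folds of these pairs are therefore less certain.

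In 2 other pairs the sequences were too alike for that. Rps27rt had 17.2 CPM, and 91.1% of its windows of 50 bases were found in Rps27. Rpl9-ps6 had 6.34 CPM against 107 CPM for Rpl9, with 99.8% identical coding bases and 89.2% of its windows found in Rpl9. In turn, 98.6% of the windows of Rps27 were found in Rps27rt, and 86.1% of those of Rpl9 in Rpl9-ps6. How the authors' counting split reads between such copies is not given in the sources used here. The values of Rps27rt, Rpl9-ps6, Rps27 and Rpl9 are therefore uncertain. Rps4l, listed as a transcribed processed pseudogene, had 26.4 CPM against 173 CPM for the X-linked Rps4x, and no window of 50 bases in common with it. Rps23rg1, whose transcript shares 17.1% of its windows with Rps23, had 5.10 CPM against 231 CPM for Rps23. Rps19bp1, a nucleolar protein that binds Rps19, had 3.98 log2 CPM per kb and shared no window with another gene.

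**Figure D2:**
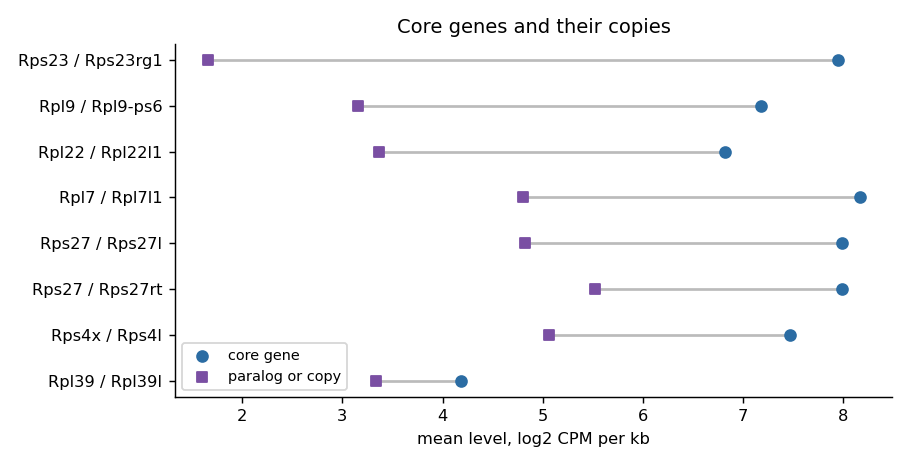
Each line joins a core gene (circle) and its paralog or copy (square), placed by the authors' mean level in log2 CPM per kb. The core gene is higher in every pair, by 0.85 for Rpl39 and Rpl39l at the least and by 6.30 for Rps23 and Rps23rg1 at the most.

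Shared sequence was a general property of these genes. Of the 83 genes, 80 shared at least 1 window of 50 bases with a gene elsewhere in the genome, and 43 (51.8%) shared over 50% of their windows. Of 15741 other genes, 2.47% shared over 50%, and 74.3% shared none. Rps27 shared 98.6% of its windows, Rpl9 93.3%, Rpl10 92.1% and Rps12 90.1%, whereas Rps3 shared 2.96%. In all, 492 genes each held at least 10% of the windows of some member, and 464 of them were pseudogenes. Paired reads cover more sequence than 1 window, so a fragment can have a single place where a window has several. Copies with a mismatch, or outside annotated transcripts, were not counted, so the shares can also be too low. How often a fragment has a second place was not measured.

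The level per kb showed little relation to the shared percentage. The 40 core genes with over 50% of their windows shared had a median of 7.32 log2 CPM per kb, and the other 35 had 6.85. Over the 75 core genes Spearman's rho between the shared percentage and the level per kb was 0.14, a description of genes that share libraries and length estimates. All 5 genes in the low tail had under 50% of their windows shared, from 6.14% in Rps15a to 44.9% in Rps10.

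**Figure D3:**
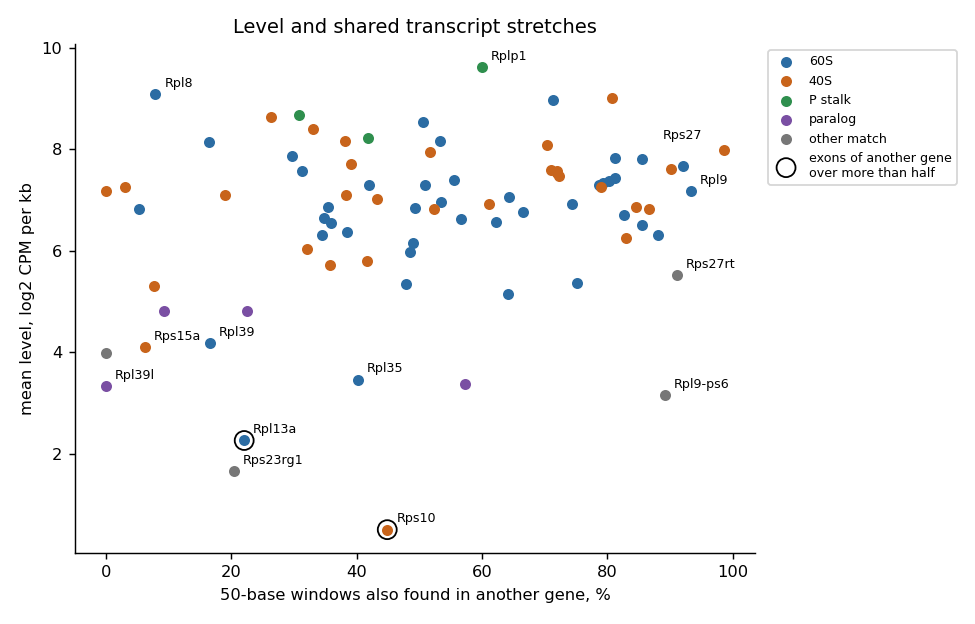
Each point is one of the 83 genes, with the percentage of its 50-base windows found in another gene on the x axis and its level in log2 CPM per kb on the y axis, and rings mark genes with over 50% of their transcript under exons of another gene. The points spread from 0% to 98.6% with no clear slope, and the 2 ringed genes, Rps10 and Rpl13a, are the lowest core genes.

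Of the 492 genes that held at least 10% of a member's windows, 90 had a value of their own. By name, the tables held 39 pseudogenes of a ribosomal protein, which leaves out copies under other names. They had a median of 1.14 log2 CPM, and 7 were under 1 CPM. Together they took 149 CPM, which is 1.41% of the sum of the 83 genes. The highest were Rps4l at 26.4, Rpl14-ps1 at 17.6, Rpl36-ps3 at 12.3 and Rpl36a-ps2 at 11.5 CPM.

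Many core genes held small nucleolar RNAs (snoRNAs), which guide the modification of ribosomal RNA, between their start and end on the same strand. Whether these lie in introns was not checked. Of the 75, 29 (38.7%) held at least 1 annotated snoRNA and 55 in all, against 1.49% of the other protein coding genes with a value. Rpl4 held the most with 5, and Rpl13a held 4. Hosts and the other core genes had medians of 7.26 and 7.10 log2 CPM per kb.

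The annotated starts of these genes were rich in pyrimidines. A RefSeq start was found for 62 of the 83 genes. Of these, 14 (22.6%) had C at an annotated start followed by 4 or more bases that were C or T, against 2.96% of 26963 other genes. Allowing the run to begin within 5 bases of the start gave 31 of 62 (50.0%) against 21.1%. At the first base, 47.7% of 65 core starts had a pyrimidine against 24.1% of 13176 starts of other protein coding genes with a value, and 32.3% against 14.5% had a C. Over the first 10 bases 58.9% of core bases were pyrimidines against 46.3%. Over the 10 bases before the start the shares were 59.1% and 52.0%, so core genes were also higher upstream, by less. Annotated starts can lie some bases from the starts used in the tissue, which were not measured here.

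**Figure D4:**
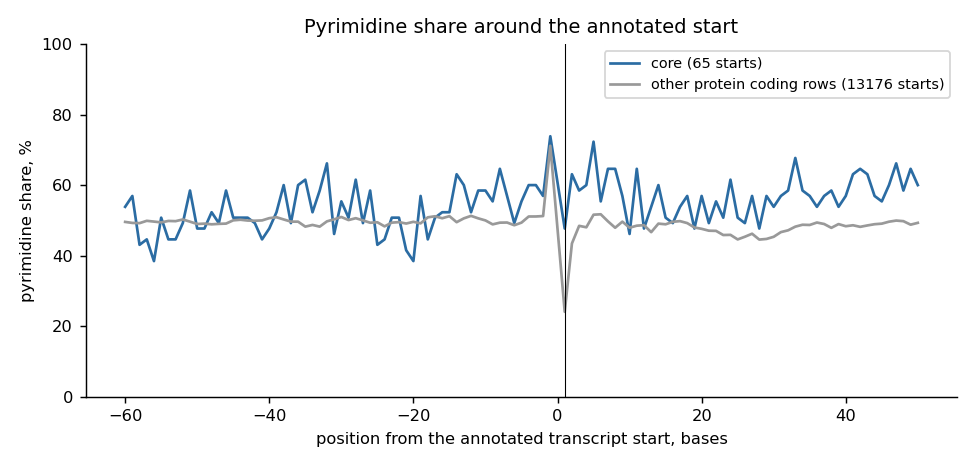
Pyrimidine share in percent at each base from 60 bases before to 50 bases after the annotated start, for 65 starts of core genes and 13176 starts of other protein coding genes with a value. At the first base the share is 47.7% in core genes and 24.1% in the others, and over the first 10 bases it is 58.9% and 46.3%.

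The level of a core gene did not follow this feature clearly. The 27 core genes with a run within 5 bases of a start had a median of 6.91 log2 CPM per kb, from 0.50 to 8.67, and the 28 without one had 7.12, from 5.15 to 8.97. Of other motifs searched on both strands of the 300 bases around each start, CCGGAAG, the core bound by ETS factors, was in 25 of 62 genes (40.3%), against 19.2% of 10273 other protein coding genes with a value. AAGATGGC, a YY1 motif, was in 6 of 62 (9.68%) against 5.04%. TATAAA, the TATA box, was in 7 (11.3%) against 8.69%, and GGGCGG, the GC box, in 38 (61.3%) against 68.6%. Against the 26963 other genes with a start, whether or not they had a value, both directions turned, with TATAAA in 15.7% and GGGCGG in 38.1%, while CCGGAAG was in 9.86% and AAGATGGC in 3.17%. A match to these letters is not a measured binding site.

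Other parts of the translation machinery had lower medians per kb than the 7.11 of the core genes, the elongation factors by the least. The 77 mitochondrial ribosomal proteins, which build the separate ribosome of the mitochondrion, had a median of 3.33 log2 CPM per kb, 13.7-fold under the core cytosolic genes. Of the 75 core genes, 44 lay above every mitochondrial one, and 2 (Rps10 and Rpl13a) lay under the mitochondrial median. The 6 elongation factors had a median of 6.74, from Eef1d at 5.37 to Eef1a1 at 9.87, with Eef2 at 8.40, Eef1b2 at 6.77, and Eef1g and Eif5a both at 6.71. The 13 subunits of the initiation factor eIF3 had a median of 5.82 log2 CPM per kb, and their levels ran from 3.93 log2 CPM in Eif3j1 to 9.08 in Eif3a. Of 49 genes of ribosome biogenesis 48 had a value, with a median of 3.39 per kb and levels from 2.80 log2 CPM in Gar1 to 9.64 in Ncl, which encodes nucleolin.

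Growth signalling to the ribosome was represented by 12 genes of mTORC1 and the S6 kinases. Their median was 3.04 log2 CPM per kb. Their levels ran from 3.20 log2 CPM in Eif4ebp1, a repressor of translation initiation, to 7.73 in Tsc2, a brake on mTORC1. Non-coding snoRNA hosts with a pyrimidine start had values for 7 of 8 genes, a median of 2.50 log2 CPM per kb, and levels from 0.69 log2 CPM in Snhg15 to 5.84 in Gas5.

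**Figure D5:**
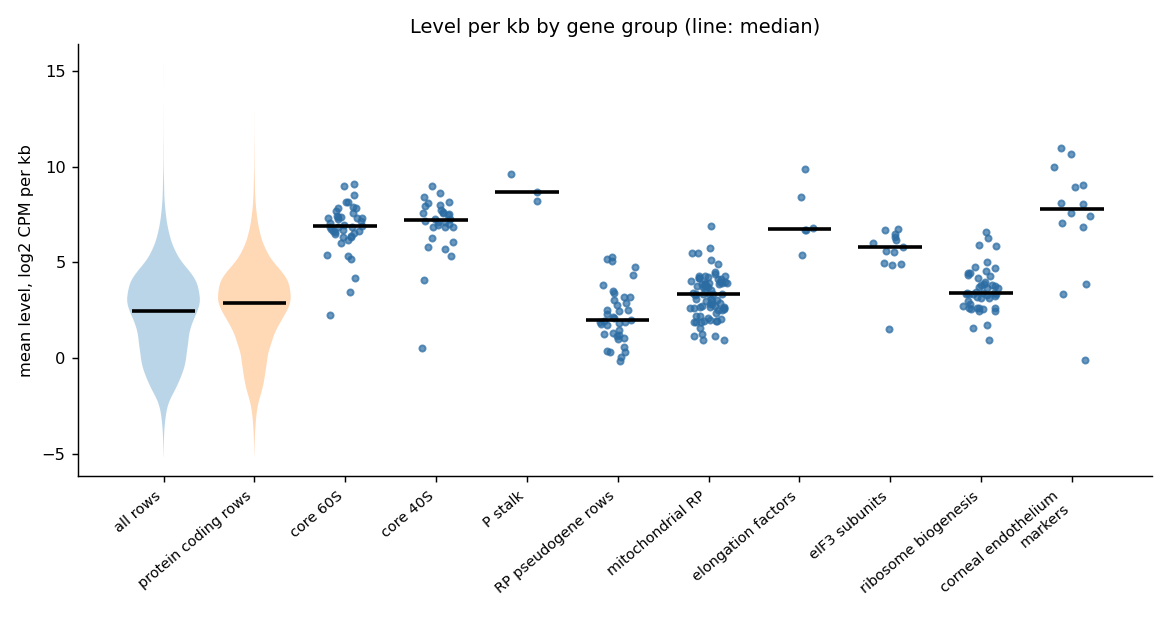
Level in log2 CPM per kb of all genes and of protein coding genes (violins), and of single genes in the core 60S, core 40S, P stalk, pseudogene, mitochondrial ribosome, elongation factor, eIF3, biogenesis and corneal endothelium groups (points), with the median as a line. The core 60S and 40S medians of 6.89 and 7.22 lie above the mitochondrial median of 3.33 and below the corneal endothelium median of 7.79.

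The tissue was checked against its markers. All 14 corneal endothelium markers had a value, with a median of 10.09 log2 CPM, lowest for Car2 at 0.74 and highest for Col8a2 at 12.79, and Slc4a11 itself had 10.71 as the mean over KO and WT, which cannot check the deletion. Stroma markers were present at 7.24 log2 CPM (Col3a1) to 12.07 (Col1a2), and of 9 corneal epithelium markers the median was 2.29, with Cdh1 at -0.01 and Aldh3a1 at 10.06. Iris pigment markers had a median of 0.74, from Mlana at -0.58 to Dct at 3.26, and leukocyte markers a median of 1.22, from Ptprc at 0.94 to Csf1r at 3.29. Lens markers had a median of 0.88, from Mip at -0.27 to Bfsp1 at 2.63, and nerve markers a median of 0.93, with Mbp, a myelin protein, highest at 5.78. Of 6 muscle markers 3 had a value, from Tnnt3 at 1.20 to Myh11 at 7.69. 1 of 5 red cell markers, Alas2, had a value, at 1.80. In bulk samples the level of a ribosomal protein gene mixes all of these cells, and the number of cells of a type and the RNA in each cell cannot be told apart.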

How the data were processed

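Total RNA of Descemet membrane with corneal endothelium was sequenced by the authors in 12 libraries, with paired-end reads of 50 bases from a stranded low-input kit. Reads were aligned to GRCm38 (mm10) with HISAT2, and counts were converted to CPM, normalised by TMM and fitted with limma and voom. Tool versions, the counter and the annotation release are not given in the sources used here. The authors deposited 3 tables (genotype, sex and interaction), each with 15838 genes and the same mean level on the log2 scale, log2 CPM over all libraries. The log2 fold changes, moderated t, p-values, adjusted p-values and log-odds in these tables are the authors' own comparisons and were not used, so no test was made. There are no values per library, so depth is unknown and no interval can be given.

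The members and gene lists were chosen with earlier results of these data known. Lengths, exons and snoRNAs come from GENCODE M21 (GRCm38), which held 15824 of the 15838 genes. One main transcript was taken per gene, by APPRIS, CCDS and support level, and the level per kb is the mean log2 CPM minus log2 of its length in kb. Coding lengths leave out the stop codon. Windows of 50 bases were taken at each base of a member and every 10 bases of other genes, and searched without mismatch on both strands of all transcripts of genes at other loci. The search was checked against a plain text search on made-up sequences. Starts come from RefSeq (GRCm38.p6), 250 bases before and 50 after each start, and a gene with several starts counts where any start holds a motif. Genes without a start include Rpl36, Rpl21, Rpl3, Rpl7, Rps14, Rpl32, Rpl9-ps6, Rpl17, Rpl23a, Rpl30, Rplp1, Rps27a, Rps20, Rpl29, Rps29 and Rpl8. Named genes are all of the small lists (P stalk, 5S RNP, other-named proteins, paralogs, exit tunnel, elongation factors), the 8 highest and 8 lowest core genes per kb, the 5 highest and lowest by level, matches in no list, the ends of each other list and Slc4a11. Some genes under this rule are not reported here. Other genes named were chosen after their values were seen. Python 3 scripts were used throughout.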

Additional observations from a re-analysis of the deposited data

How the results depend on the processing

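No value has a replicate error here, so a value is said to have moved where it changed at 2 decimals. No replicate could be left out and no paired analysis was possible because each gene has only its mean over the libraries. The median level of 6.68 log2 CPM was 6.76 over core genes and 6.72 without Rps10 and Rpl13a, which other exons cover. The median percentile of 89.4 was 87.2 among protein coding genes, 88.4 among genes of at least 1 CPM, and 98.1 per kb. The 40S median stayed above the 60S median in the settings tried. The difference of 0.33 was 0.26 per coding kb, 0.023 without a length correction and 0.26 with the P stalk added to the 60S subunit. It was 0.62 over the 45 core genes without a measured pseudogene of their name, whether or not copies under other names were measured. With only windows found in no other gene counted as length, it was 0.51. The interquartile width of 1.17 was 1.25 per coding kb, 1.45 without a length correction, 2.16 with unshared windows as length, and 1.16 without Rps10 and Rpl13a. The count of 14 genes with a pyrimidine start was 10 with 6 pyrimidines, 31 within 5 bases of the start and 45 with 6 pyrimidines within 30 bases. The settings with unshared windows, without Rps10 and Rpl13a, and within 30 bases were chosen after seeing the data. The planned share of lysine and arginine was not run, since no protein sequences were used here.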
